A study of Homo sapiens with 9 samples.

Results

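The 10 genes followed here are those that cells switch during the epithelial-mesenchymal transition: the cadherins CDH1 and CDH2, the intermediate filament protein VIM, the matrix protein FN1, the repressors SNAI1, SNAI2, ZEB1 and ZEB2, and the splicing regulators ESRP1 and ESRP2. They were chosen by name, with earlier results of these data known. Every array probe annotated to them was taken, which gave 15 of the 47231 probes. A single probe stood for 6 of these genes. A probe bright enough to be tested was found for 6 genes, among 16180 genes tested in all, and not for 4 genes (CDH2, SNAI1, ZEB1 and ESRP2). RNA of the human gastric cancer line MKN45 was hybridised to Illumina bead arrays, 1 array per sample. Cells that carried a YAP-S127A vector (3 arrays) were set against cells with a control vector (3 arrays) and mock cells (3 arrays). In YAP-S127A the serine through which Hippo kinases hold the coactivator YAP in the cytoplasm is an alanine, which makes the protein constitutively active. The labels used here name neither the promoter of the vectors nor their delivery, and do not say whether cells were pools or clones. They also leave unsaid whether replicate arrays stem from separate cultures, so p-values reflect only the spread between these samples, and that spread may be technical.

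In an epithelium, E-cadherin (CDH1) joins neighbouring cells, keratins fill the cytoplasm, and the ESRP proteins keep transcripts in their epithelial splice forms. During the transition, SNAI and ZEB proteins bind E-box sequences and repress CDH1 and other epithelial genes, while N-cadherin (CDH2), vimentin (VIM) and fibronectin (FN1) become abundant. YAP acts on genes through TEAD transcription factors, and active YAP has been linked to this transition in other epithelial cells. The comparison asks whether active YAP moved these gastric cells toward a mesenchymal state at the level of RNA.

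The values below are normalized log2 intensities, on which a difference of 1 is a doubling of signal, and a level of one probe cannot be set against that of another. Genes were called at an adjusted p under 0.05, from limma with Benjamini-Hochberg adjustment over all genes tested. All 11 markers of gastric epithelial tumour cells lay above the 99th percentile (6.54) of 437 probes for olfactory receptor genes, which stand here for genes that the cells do not use. Within that list 2 genes were called higher against each control, KRT8 and KRT18. Over all genes tested, 1.76% were called higher against vector and 2.18% against mock. In the list 4 genes were called lower against each control, where 1.7% and 2.07% of all genes were. These were the stomach peptide gene TFF1 (−0.90 from vector and −0.69 from mock), the lectin gene LGALS4 (−0.85 and −0.82), the gastric claudin gene CLDN18 (−0.86 and −0.91) and CEACAM5 (−0.44 and −0.40). Of 9 fibroblast markers 1 lay above that percentile, LUM, and of 6 endothelial markers 0 did. The mean level of the fibroblast list ran from 6.36 to 6.42 on YAP-S127A arrays, 6.23 to 6.31 on vector arrays and 6.22 to 6.34 on mock arrays, so it lay slightly higher on the YAP-S127A arrays, and its part in any result was not tested. Of 6 immune markers on the array 2 lay above that percentile, LYZ and CD68, and the mean level of that list ran from 7.49 to 7.64 on YAP-S127A arrays, 7.67 to 7.81 on vector arrays and 7.64 to 7.77 on mock arrays. LYZ, the lysozyme gene that gastric glands express too, fell by 0.77 against vector (limma, adjusted p = 0.000193), while against mock it fell by 0.60 (adjusted p = 0.00334), and CD68 differed by 0.05 and 0.02. Of 6 mesothelial and muscle markers MSLN, CALB2 and WT1 lay above the same percentile. On the second principal component mock array 1 was far out at 17.9, and all others lay between −9.9 and 3.2. In RNA of whole cultures, fewer cells that use a gene and less RNA per cell cannot be told apart. CCN1, an established YAP target, stood at 8.84 to 9.19 on YAP-S127A arrays, 6.55 to 6.73 on vector arrays and 6.24 to 6.47 on mock arrays. The single YAP1 probe lay between 5.97 and 6.19 on all 9 arrays, under the 95th percentile of the olfactory receptor probes (6.40). It thus registered no YAP1 RNA above background in any group and does not show whether the construct was expressed. The sequence of this probe was not at hand to compare with the construct.

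Only 4 of the 10 genes had a probe whose mean lay above the 95th percentile (6.40) of the olfactory receptor probes: CDH1, ESRP1, VIM and SNAI2. The other 6 had the means of all their probes, over all 9 arrays, under that percentile. CDH1, ESRP1 and the brighter VIM probe stood above all olfactory receptor probes, whereas SNAI2 passed that level through the YAP-S127A and vector arrays, with a mock mean of 6.36. In the tests described below SNAI2 rose, as a gene against mock and on its dimmer probe against both controls, and the other 9 genes did not pass in any comparison under the main processing.

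**Figure D1:**
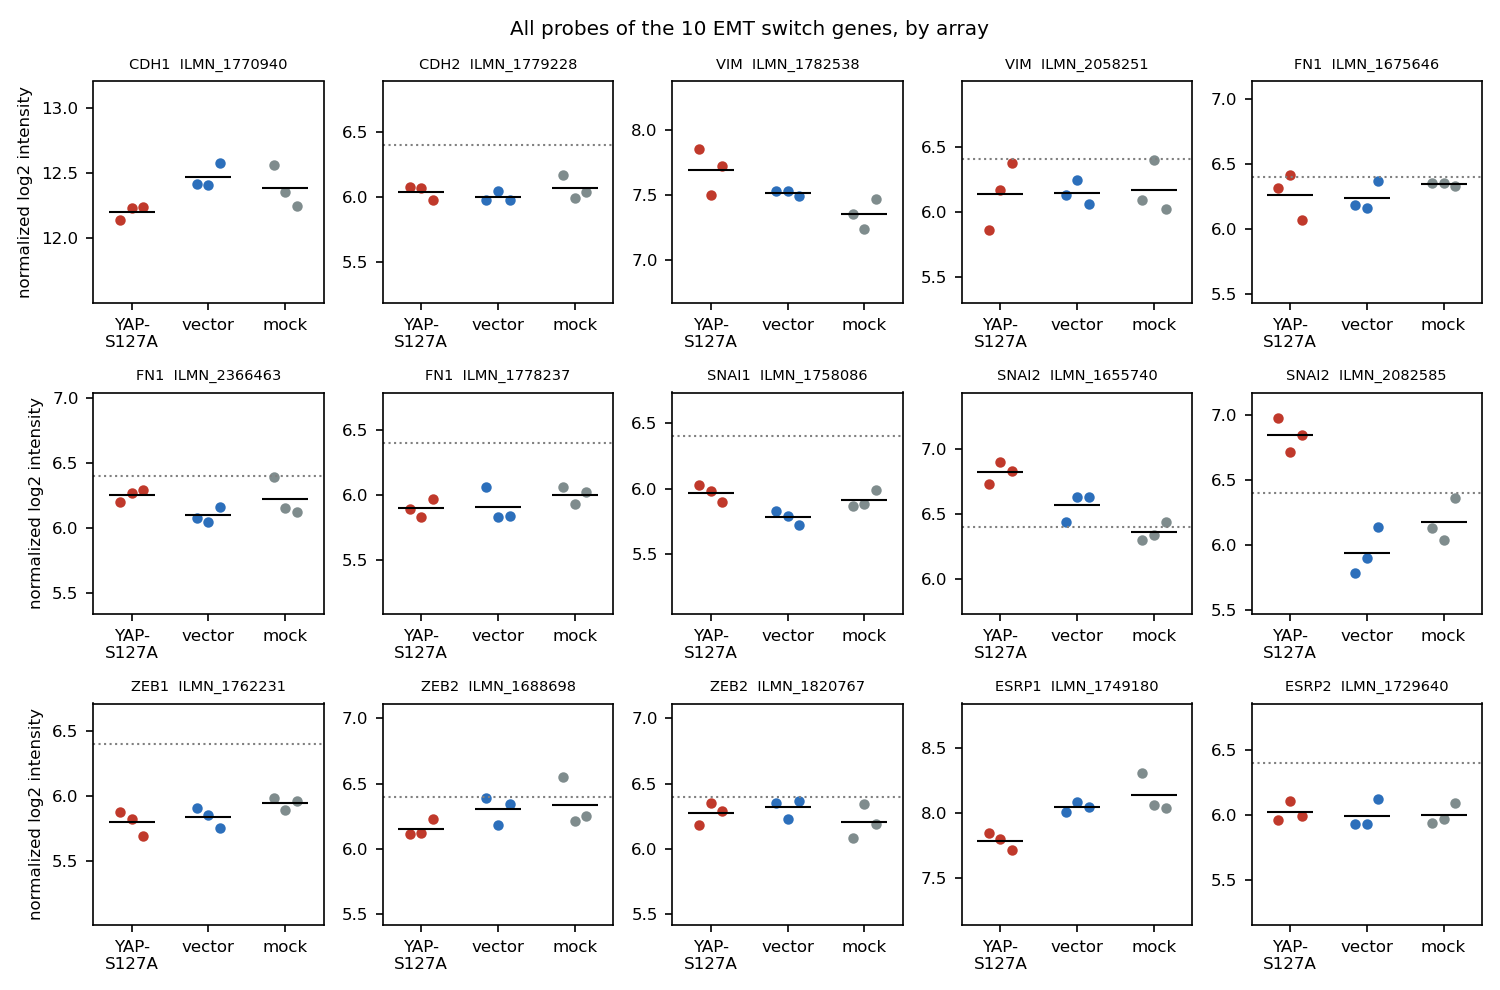
Normalized log2 intensity (vertical axes, each 1.7 units tall) of all 15 probes of the 10 genes, with 1 point per array, YAP-S127A in red, vector in blue and mock in grey, and a black line at each group mean. The dotted line is the 95th percentile of the olfactory receptor probes (6.40), shown where it falls in the panel. CDH1, ESRP1 and both SNAI2 probes are those whose YAP-S127A points lie beyond all control points.

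SNAI2 encodes Slug, a zinc-finger repressor of CDH1, and it was the one member called. Its probe ILMN_2082585 stood at 6.97, 6.71 and 6.84 on the YAP-S127A arrays, against 5.78, 5.90 and 6.14 on the vector arrays and 6.13, 6.04 and 6.36 on the mock arrays. All 3 YAP-S127A arrays lay above all 6 control arrays, and the control arrays lay within the range of the olfactory receptor probes. With every probe past the filter tested, the probe rose against vector, with a fitted log2 difference of 0.90 ± 0.12 (SE, n = 3 arrays in each group) and an adjusted p of 2.01e-05 by limma, and against mock, with 0.67 ± 0.12 (adjusted p = 0.00115). Since no control array lay above its own background level, taken as the 95th percentile of the olfactory receptor probes on that array (6.45 to 6.55), these differences are not measured ratios. With the control arrays set to that level, the YAP-S127A mean was 1.28-fold that of the vector arrays and 1.29-fold that of the mock arrays. These are point estimates from 3 arrays in each group, without an interval, and the true ratios may be larger or smaller. In that fit 1.14% of all probes were called higher against vector and 1.38% against mock. The control means, 5.94 in vector and 6.17 in mock, lay under the filter (6.18), so the probe was tested only because the YAP-S127A arrays were bright. With no filter at all, its adjusted p was 7.9e-06 against vector and 0.000763 against mock.

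The further SNAI2 probe, ILMN_1655740, was also brightest on the YAP-S127A arrays, with a smaller difference. It stood at 6.73, 6.90 and 6.83 on the YAP-S127A arrays, against 6.44, 6.63 and 6.63 on the vector arrays and 6.30, 6.34 and 6.44 on the mock arrays. Again no control array reached the lowest YAP-S127A array. This probe was the brighter one and stood for the gene in the test over genes: the gene rose against mock, with a fitted difference of 0.46 ± 0.10 (limma, adjusted p = 0.0108), while its difference of 0.25 ± 0.10 from vector did not pass (adjusted p = 0.221). On this probe all 3 YAP-S127A arrays, 2 of the 3 vector arrays and 0 of the 3 mock arrays lay above their background level. With the mock arrays set to that level, the rise against mock was 1.27-fold, again a point estimate without an interval. Vector cells differed from mock cells by 0.21 on this probe (adjusted p = 0.901) and by −0.23 on ILMN_2082585 (adjusted p = 0.915). The probes thus differ in size, and only the dimmer one was called against both controls. The gene-level call against mock ended without YAP-S127A array 2 (0.41, adjusted p = 0.0729) and after scaling to equal medians (0.43, adjusted p = 0.0536). The calls of ILMN_2082585 held without each array in turn, with adjusted p up to 0.000534 against vector and 0.0164 against mock. As given above, that probe passed the filter only through the YAP-S127A arrays, so these repeats are a description and no separate support. With the mean of both probes the gene rose against vector too (0.58, adjusted p = 0.00171). The size depended on the processing, and over the alternatives that tested ILMN_2082585 with all arrays its difference ran from 0.54 to 1.57 against vector. Before any normalization ILMN_2082585 read 168, 146 and 132 units on the YAP-S127A arrays, against 100, 88.2 and 115 on the vector arrays and 114, 111 and 134 on the mock arrays. YAP-S127A array 3 had the lowest median signal of all arrays, 107 units, and there the raw reading lay just under that of mock array 3.

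The related repressor SNAI1, which encodes Snail, did not pass. Its single probe lay between 5.90 and 6.03 on the YAP-S127A arrays, 5.72 and 5.83 on the vector arrays and 5.87 and 5.99 on the mock arrays. It lay above all vector arrays but overlapped the mock arrays, and only 7.32% of the olfactory receptor probes were dimmer. In the fit without a filter it differed by 0.19 from vector (95% interval −0.02 to 0.40, adjusted p = 0.536) and by 0.06 from mock (−0.16 to 0.27, adjusted p = 0.914).

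E-cadherin (CDH1) differed by a small amount that did not pass the test. Its probe stood at 12.14, 12.23 and 12.24 on the YAP-S127A arrays, against 12.42, 12.41 and 12.58 on the vector arrays and 12.56, 12.36 and 12.25 on the mock arrays. Each YAP-S127A array lay below each control array, though the gap to mock array 3 was 0.01. The difference was −0.27 ± 0.11 from vector (limma, adjusted p = 0.197) and −0.19 ± 0.11 from mock (adjusted p = 0.397). As a ratio this is 0.830 against vector (95% interval 0.712 to 0.967) and 0.878 against mock (0.754 to 1.02), so a ratio under 0.712 lay outside both intervals. The probe stood at percentile 98.2 of all probes.

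N-cadherin (CDH2), which replaces E-cadherin in many mesenchymal cells, lay within the range of unused genes in every group. Its probe ran from 5.98 to 6.17 over all 9 arrays. It differed by 0.05 from vector and −0.02 from mock, and 95% intervals reached from −0.23 to 0.26. A small amount of transcript was not detectable at this brightness.

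ESRP1, an RNA-binding protein that keeps epithelial splice forms, did not pass the test either. It read 7.85, 7.80 and 7.72 on the YAP-S127A arrays, against 8.01, 8.09 and 8.05 on the vector arrays and 8.31, 8.06 and 8.04 on the mock arrays. The YAP-S127A arrays were apart from all 6 control arrays. The difference from vector was −0.26 ± 0.10 (limma, adjusted p = 0.195) and that from mock −0.35 ± 0.10 (adjusted p = 0.0615), ratios of 0.833 (95% interval 0.718 to 0.967) and 0.787 (0.677 to 0.913). Against mock the gene passed in 5 of the 22 alternatives, with adjusted p from 0.0411 to just under 0.05. It did so without background correction, with the log2 values as the authors deposited them, with a stricter filter at the median of all probes, with probes averaged per gene, and without mock array 3. Its paralog ESRP2 had a probe between 5.93 and 6.12 on all arrays, within the range of unused genes, and differed by 0.03 from vector and 0.02 from mock.

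Vimentin (VIM) is the intermediate filament protein of mesenchymal cells. Its brighter probe, ILMN_1782538, read 7.85, 7.50 and 7.72 on the YAP-S127A arrays, against 7.53, 7.53 and 7.49 on the vector arrays and 7.35, 7.24 and 7.47 on the mock arrays. YAP-S127A array 2 lay within the vector arrays, while all 3 lay above the mock arrays. The difference was 0.18 ± 0.11 from vector (limma, adjusted p = 0.473) and 0.33 ± 0.11 from mock (adjusted p = 0.0904), and vector cells differed from mock cells by 0.16, with adjusted p = 0.92. Neither YAP-S127A difference passed in any of the 22 alternatives. The dimmer probe, ILMN_2058251, ran from 5.86 to 6.40 and differed by −0.01 from vector and −0.03 from mock.

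Fibronectin (FN1), a matrix protein that mesenchymal cells secrete, had 3 probes that all stayed between 5.83 and 6.41, with means in the range of unused genes. Its differences ran from −0.02 to 0.16 against vector and from −0.11 to 0.03 against mock, and none passed. The ZEB repressors were likewise dim. ZEB1 lay between 5.69 and 5.98, with 3.2% of the olfactory receptor probes below it, and its YAP-S127A arrays (5.88, 5.82 and 5.69) all lay below the mock arrays (5.98, 5.89 and 5.96) but overlapped the vector arrays. It differed by −0.04 from vector and −0.15 from mock, where adjusted p was 0.668 by limma. The 2 ZEB2 probes lay between 6.08 and 6.55. The one that stood for the gene differed by −0.15 ± 0.11 from vector (limma, adjusted p = 0.56) and by −0.19 ± 0.11 from mock (adjusted p = 0.424), the other by −0.04 and 0.07, so the ZEB2 probes had opposite signs against mock.

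**Figure D2:**
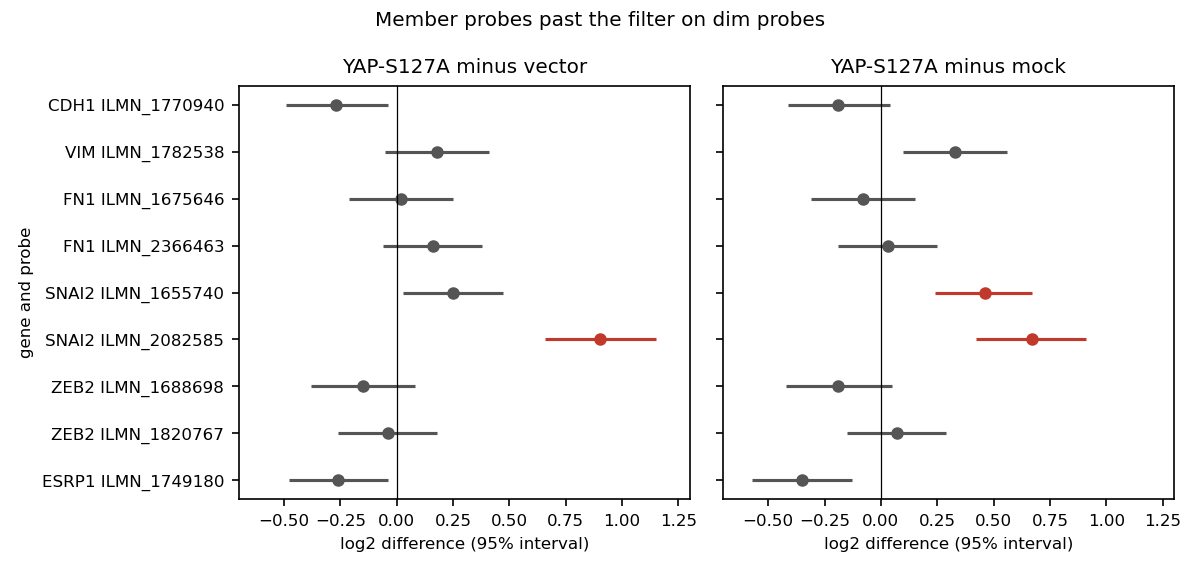
Log2 differences (horizontal axes) of the 9 member probes that passed the filter, YAP-S127A minus vector on the left and YAP-S127A minus mock on the right, as points with 95% intervals from the fit over 35423 probes, in red where the adjusted p was under 0.05. ILMN_2082585 of SNAI2 is red on both sides (0.90 and 0.67) and ILMN_1655740 of SNAI2 only against mock (0.46), in each case against control arrays that were not above background.

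Counted over genes, 0 of the 6 tested members were called against vector by limma, where 1.76% of all tested genes were called higher and 1.7% lower. An unadjusted p under 0.05 was reached by 3 of them, CDH1, SNAI2 and ESRP1. Against mock 1 member was called higher and 0 lower, where 2.18% and 2.07% of all genes were, and VIM, SNAI2 and ESRP1 had an unadjusted p under 0.05. No member was called against both controls through its brightest probe, where 2.37% of all genes were. Between vector and mock 0 of the 6 were called, also at an unadjusted p under 0.05, and 0.0124% of all genes were. In 3 of the 6 members all YAP-S127A values were beyond those of the 6 control arrays, 1 higher (SNAI2) and 2 lower (CDH1 and ESRP1), where 5.62% of all tested genes were apart on the higher and 5.64% on the lower side. Both comparisons share the YAP-S127A arrays. The median difference over the 6 members was −0.06 against vector and −0.14 against mock, beside −0.01 and 0.00 over all genes. With arrays scaled to equal medians, the calls over all genes were 141 higher and 225 lower against vector, where the quantile-normalized values gave 284 and 275, and 147 and 323 against mock, where they gave 352 and 335.

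RefSeq promoter windows of 300 bases, from 250 before to 50 after the annotated start (GRCh38.p14), were at hand for 5 of the 10 members, 12 windows in all: CDH2, VIM, FN1, ZEB1 and ZEB2. They were searched on both strands for the E-box that SNAI and ZEB proteins bind (CAGGTG or its reverse complement CACCTG) and for the core of the TEAD motif (CATTCC or GGAATG). Of all 35116 windows 20.6% held the E-box and 14% the TEAD core. Among the member windows 2 held the E-box, both of them among the 7 of ZEB1, and 1 of these held the TEAD core as well. Of the 5 genes of the related lists below that rose against both controls (AJUBA, ETS1, KRT7, KRT8 and KRT18), 2 had windows, AJUBA 2 and KRT8 1. Of these 3 windows 2 held the TEAD core, 1 of AJUBA and that of KRT8, and 1 of AJUBA held the E-box. The ZEB1 window with both motifs is shown with the VIM window, which had no match, and the single window of KRT8, one of the keratin genes that rose. Capitals mark the matches, each sequence runs 5′ to 3′ on the strand of its gene, and a match is a description of letters and not of binding.
ZEB1, chr10:31318167-31318466, plus strand: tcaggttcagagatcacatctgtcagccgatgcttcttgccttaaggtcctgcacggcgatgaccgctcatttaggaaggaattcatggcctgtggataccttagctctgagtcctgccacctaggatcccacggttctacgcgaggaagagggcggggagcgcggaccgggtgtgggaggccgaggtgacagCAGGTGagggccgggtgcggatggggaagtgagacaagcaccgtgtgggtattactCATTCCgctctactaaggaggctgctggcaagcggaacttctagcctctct
VIM, chr10:17227991-17228290, plus strand: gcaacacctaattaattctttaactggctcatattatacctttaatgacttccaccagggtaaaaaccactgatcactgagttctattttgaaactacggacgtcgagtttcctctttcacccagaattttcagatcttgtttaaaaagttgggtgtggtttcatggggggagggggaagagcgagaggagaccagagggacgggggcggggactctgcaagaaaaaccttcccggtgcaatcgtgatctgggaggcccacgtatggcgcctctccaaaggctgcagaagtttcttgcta
KRT8, chr12:52926420-52926719, minus strand: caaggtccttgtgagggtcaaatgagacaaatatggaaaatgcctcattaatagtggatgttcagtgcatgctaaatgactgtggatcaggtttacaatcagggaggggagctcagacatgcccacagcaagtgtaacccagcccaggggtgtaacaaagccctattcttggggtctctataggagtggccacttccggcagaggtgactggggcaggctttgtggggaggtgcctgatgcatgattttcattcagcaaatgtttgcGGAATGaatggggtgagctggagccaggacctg
Counted from the 5′ end of the window, the ZEB1 E-box begins at base 194 and its TEAD core at base 250, and the KRT8 TEAD core begins at base 268. The ZEB1 probe was within the range of unused genes, as given above, and the motifs do not overlap.

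Related genes were counted in 9 lists, each to be read against the shares of all genes called (1.76% higher and 1.7% lower against vector, 2.18% higher and 2.07% lower against mock). The lists were chosen with earlier results of these data known, so a count above these shares is a description and no test. Keratins are the intermediate filaments of epithelial cells, as vimentin is of mesenchymal ones, and some of them rose. Against vector 3 of the 9 intermediate filament genes tested rose (1.76% of all genes did), 0 fell and 6 were not called, with a median of 0.17 beside −0.01 over all genes. Against mock 4 rose (2.18% of all genes did), 0 fell and 5 did not pass, with a median of 0.27. KRT18, which pairs with KRT8 in simple epithelia, read 11.56, 11.57 and 11.65 on YAP-S127A arrays, against 10.08, 9.85 and 10.22 on vector arrays and 10.21, 10.54 and 10.29 on mock arrays. These groups were far apart, and the gene rose by 1.54 ± 0.11 against vector and 1.25 ± 0.11 against mock (limma, adjusted p = 2.68e-09 and 1.23e-07), while its dimmer probe differed by only 0.33 and 0.24. KRT7, a keratin of glandular ducts, rose by 1.34 ± 0.10 and 1.52 ± 0.10 (adjusted p = 2.38e-09 and 2.71e-10). KRT8 rose by 0.85 ± 0.12 and 0.88 ± 0.12. KRT19 (0.16 and 0.27) and KRT20 (−0.17 and 0.06) did not pass. KRT8 and KRT18 are also among the epithelial markers given above, of which 4 fell. The calls of KRT7, KRT8 and KRT18 held under all 22 alternatives. PLEC, which encodes the linker protein plectin, rose by 0.38 against mock and differed by 0.21 from vector, with 8 probes on the array, a call kept in 2 of the 9 fits without an array (0.36, adjusted p = 0.163, without YAP-S127A array 1).

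**Figure D3:**
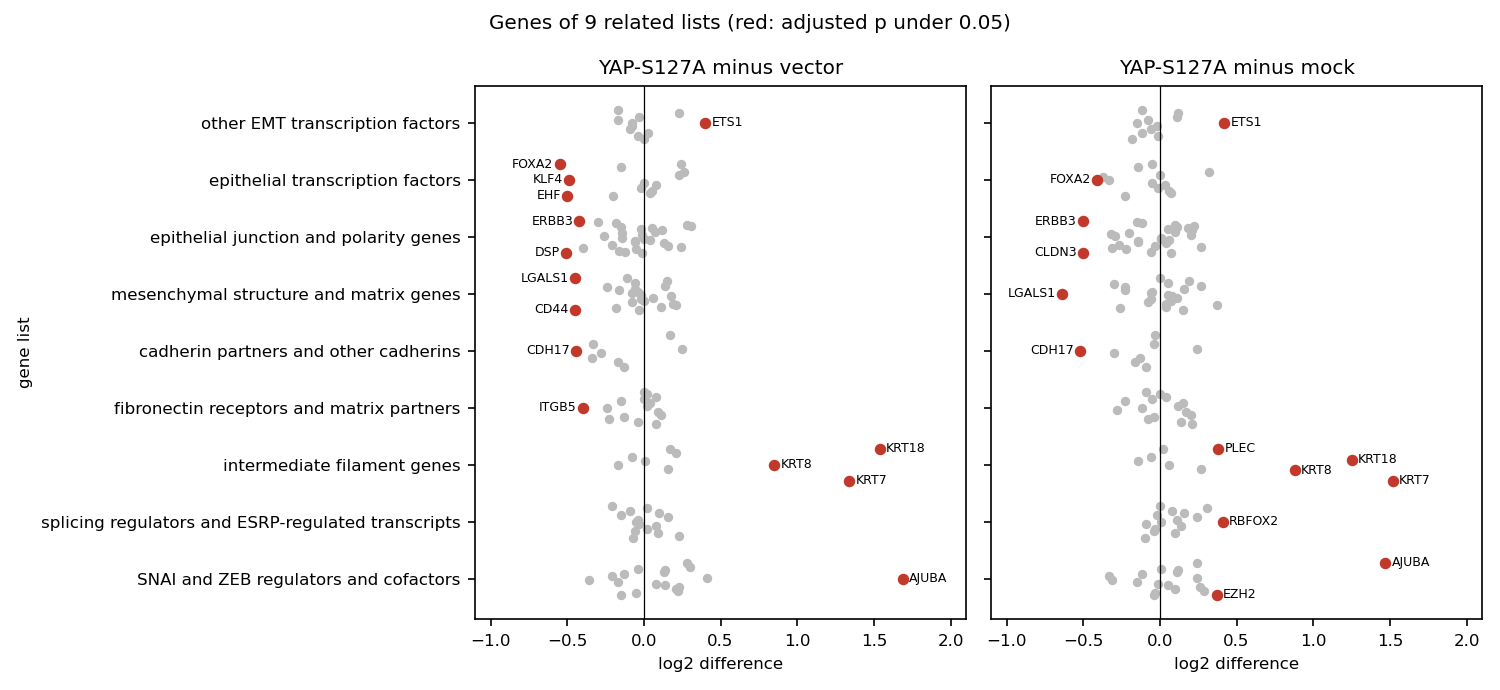
Log2 difference (horizontal axes) of each tested gene in 9 related lists, YAP-S127A minus vector on the left and YAP-S127A minus mock on the right. Red points with names are genes with an adjusted p under 0.05 and grey points are the others. Keratins 7, 8 and 18 and AJUBA lie furthest to the right. No gene of the mesenchymal list is red on the right of 0, which is near the background, as 1.76% of all genes were called higher against vector and 2.18% against mock.

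Of 22 tested mesenchymal structure and matrix genes 2 fell against vector and 20 did not pass (median −0.04), and against mock 1 fell and 21 did not pass (median 0.04, beside 0.00 over all genes). With 1.76% and 2.18% of all genes called higher, the count of 0 called higher in a list of this size is near the background and is no result about these genes. LGALS1, the lectin galectin-1, read 9.53, 9.78 and 9.94 on YAP-S127A arrays, against 10.14, 10.34 and 10.13 on vector arrays and 10.23, 10.29 and 10.67 on mock arrays. All YAP-S127A arrays were lower, and LGALS1 fell by 0.45 against vector (limma, adjusted p = 0.0481) and by 0.64 against mock (adjusted p = 0.00325). CD44, a hyaluronan receptor with ESRP-regulated splice forms, fell by 0.45 against vector and differed by −0.30 from mock, and its 2 further probes differed by −0.64 and −0.65 from vector. The smooth muscle actin gene ACTA2 (−0.03 from vector and 0.15 from mock), the collagen gene COL1A1 (0.11 and 0.04) and SPARC (0.18 and 0.08) did not pass. The largest upward difference in the list was that of COL1A2, 0.21 and 0.37 (limma, adjusted p = 0.427 and 0.0813). AXL (0.14 and 0.27) and TGFBI (0.15 and 0.19) leaned the same way without passing. For TGFBI all YAP-S127A arrays lay above all control arrays. Mock means of COL1A2, AXL and TGFBI (6.30, 6.34 and 6.34) lay under the background level. ITGA5 (−0.24 and −0.23), TAGLN (−0.18 and −0.26) and TNC (−0.16 and −0.23) leaned downward without passing. COL1A1 had means of 6.52, 6.41 and 6.48 in YAP-S127A, vector and mock cells, and SPARC of 6.31, 6.13 and 6.23. Both lay near or under the background level, so a small difference in them was not detectable. The calls of LGALS1 and CD44 against vector were kept in 3 and 4 of the 9 fits without an array. For both the highest p came without YAP-S127A array 1, for LGALS1 with −0.34 (adjusted p = 0.251) and for CD44 with −0.39 (adjusted p = 0.137).

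Of 13 epithelial transcription factors tested, 3 fell against vector, where 1.7% of all genes did, 0 rose and 10 did not pass (median 0.00). Against mock 1 fell, where 2.07% of all genes did, 0 rose and 12 did not pass (median −0.05). FOXA2, a factor of gut endoderm, read 11.27, 11.23 and 11.20 on YAP-S127A arrays, against 11.72, 11.75 and 11.89 on vector arrays and 11.64, 11.65 and 11.63 on mock arrays. Its groups did not overlap. FOXA2 fell by 0.55 ± 0.10 against vector (limma, adjusted p = 0.00127) and by 0.41 ± 0.10 against mock (adjusted p = 0.0188). Its call against mock was kept in 6 of 9 fits without an array (−0.40, adjusted p = 0.0719, without YAP-S127A array 2). EHF, an epithelial ETS factor, fell by 0.50 and KLF4, a factor of differentiating epithelium, by 0.49 against vector (limma, adjusted p = 0.00745 and 0.0148), and against mock they differed by −0.33 and −0.37 without passing. The dimmer KLF4 probe differed by −0.45 from vector and by more, −0.66, from mock. The call of EHF was kept in 8 of 9 such fits and ended without YAP-S127A array 3 (−0.39, adjusted p = 0.0614). That of KLF4 was kept in 5, with the highest p without YAP-S127A array 1 (−0.43, adjusted p = 0.1). FOXA1 went the other way from FOXA2, by 0.26 and 0.32, without passing (limma, adjusted p = 0.228 and 0.111). The factors that oppose the transition most directly did not pass: GRHL2 differed by 0.04 from vector and 0.07 from mock, GRHL1 by −0.20 and −0.23, OVOL1 by −0.02 and −0.01, OVOL2 by 0.08 and 0.03, and ELF3 by 0.00 and −0.05. The YAP-S127A arrays lay above all 6 control arrays for FOXA1 and below them for GRHL1, as for 5.62% and 5.64% of all tested genes. OVOL1 was dim, with means of 6.44, 6.46 and 6.45 in YAP-S127A, vector and mock cells, near the background level.

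Most epithelial junction and polarity genes did not pass. Of 28 tested, 2 fell against each control, 0 rose and 26 did not pass, with medians of −0.05 and −0.01, beside 1.7% of all genes called lower against vector and 2.07% against mock. The count of 0 higher is near the background. EPCAM, an epithelial adhesion molecule, differed by −0.01 from vector and 0.07 from mock. DSP, the desmosome plaque protein desmoplakin, fell by 0.51 against vector (limma, adjusted p = 0.00581) and differed by −0.32 from mock (adjusted p = 0.0901). Its dimmer probes differed by 0.00 and −0.14 from vector, and with probes averaged per gene the fall against vector was no longer called (−0.22, adjusted p = 0.211). ERBB3, a receptor of the EGFR family, fell by 0.42 and 0.50, and CLDN3, a tight-junction claudin, fell by 0.50 against mock, with −0.16 from vector not called. The dimmer ERBB3 probes differed by −0.05 and −0.10 from vector and by −0.40 and −0.20 from mock. With probes averaged per gene the fall of ERBB3 against vector was no longer called. The call of ERBB3 against vector was kept in 3 of 9 fits without an array (−0.36, adjusted p = 0.187, without vector array 3), that against mock in 8 (−0.48, adjusted p = 0.0527, without YAP-S127A array 1), and that of CLDN3 in 7 (−0.44, adjusted p = 0.0801, without YAP-S127A array 2). Of 8 tested cadherin partners and other cadherins 1 fell against each control, the intestinal cadherin CDH17, by 0.44 and 0.52. Its call against vector was kept in 5 of 9 fits without an array (−0.37, adjusted p = 0.143, without vector array 3). The catenins that bind E-cadherin did not pass: CTNNB1 differed by −0.34 and −0.13, CTNND1 by −0.28 and −0.30, and CTNNA1 by −0.13 and −0.09 from vector and mock, and the list's medians were −0.22 and −0.11.

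Other transcription factors of the transition, fibronectin receptors and splicing regulators held 1 call at most in a comparison. Of 11 tested transcription factors ETS1 alone rose, by 0.40 against vector and 0.42 against mock (limma, adjusted p = 0.044 and 0.0295), while TWIST1 differed by −0.04 and −0.01, FOXC2 by −0.09 and −0.06 and PRRX1 by −0.17 and −0.08. PRRX1 was dim, with means of 6.11, 6.28 and 6.18 in YAP-S127A, vector and mock cells, under the background level. The dimmer ETS1 probe differed by more, 0.96 and 0.93. The calls of ETS1 were kept in 3 and 4 of the 9 fits without an array (0.29, adjusted p = 0.27, without vector array 2, and 0.37, adjusted p = 0.118, without YAP-S127A array 3). Of 15 fibronectin receptors and matrix partners the integrin gene ITGB5 fell by 0.40 against vector, and 0 were called against mock by limma, where ITGB5 differed by −0.28 and ITGA3 by 0.21. That call was kept in 3 of 9 such fits (−0.39, adjusted p = 0.0991, without vector array 3), and 4 further ITGB5 probes ran from −0.10 to 0.18 against vector. One of these, ILMN_2311166, was nearly as bright (mean 11.2 beside 11.46) and differed by only −0.10 from vector and −0.05 from mock. Of 15 splicing regulators and ESRP-regulated transcripts 0 were called against vector and 1 rose against mock. That was RBFOX2, a splicing factor of mesenchymal and neural cells, by 0.41 (limma, adjusted p = 0.0296). Its call was kept in 5 of 9 fits without an array (0.36, adjusted p = 0.121, without YAP-S127A array 3). TCF7L2 (−0.21) and RBFOX2 (0.23) had the lowest p against vector. RBM47, an RNA-binding protein of epithelia, differed by −0.07 and −0.10.

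Among 18 tested regulators and cofactors of the SNAI and ZEB proteins, AJUBA rose against both controls. AJUBA is a LIM-domain scaffold that binds SNAI proteins as a corepressor and also binds LATS kinases. It read 8.66, 8.61 and 8.44 on YAP-S127A arrays, against 7.13, 6.70 and 6.83 on vector arrays and 7.17, 7.12 and 7.02 on mock arrays, a wide gap. The rise was 1.69 ± 0.11 against vector and 1.47 ± 0.11 against mock (limma, adjusted p = 8.38e-10 and 9.37e-09), though its dimmer probes differed by 0.09 and 0.08 from vector. EZH2, the methyltransferase subunit of Polycomb complex PRC2, rose by 0.37 against mock and differed by 0.30 from vector, a call kept in 1 of 9 fits without an array (adjusted p = 0.787 without vector array 3, where a different probe stood for the gene and the difference was 0.09). The TGF-beta receptor gene TGFBR2 (−0.15 and −0.04) and SMAD3 (0.22 and 0.29) did not pass.

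The arrays were also searched for the genes whose 9 values ran most like those of SNAI2 (by its brighter probe) and CDH1. With SNAI2 these were B4GALT1 (Pearson r = 0.942), GSTM3 (0.937) and CHST13 (0.936), and the most opposite ones were BBS9 (−0.958), AGO3 (−0.957) and ZNF532 (−0.95). With CDH1 they were ATP10B (0.993), KLHL3 (0.985) and OSBP (0.982), and the most opposite ones PCGF6 (−0.971), FDX1 (−0.957) and PARD6G (−0.957). These correlations are descriptions over 9 arrays that share 3 groups and a common normalization, picked as extremes of 16180 genes. Of these 12 genes, CHST13 (0.36), KLHL3 (−0.50) and PARD6G (0.44) were called against vector, and B4GALT1 (0.35), CHST13 (0.58) and KLHL3 (−0.42) against mock.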

How the data were processed

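The authors deposited 1 linear intensity per probe and array for 9 arrays, with no background subtraction visible, and a matrix of log2 values that share their quantiles between arrays. BeadStudio is named in the submitters' processing notes, without a version in the sources used here. The intensities were background-corrected with normexp (offset 50) in limma 3.58.1 (R 4.3.3), log2-transformed and quantile normalized. Probes with a mean above the lower quartile (6.18) were kept, 35423 of 47231. In the platform annotation 30113 probes carried 1 gene symbol, 8 several and 17110 none, and 30074 received current symbols by gene ID (GRCh38.p14). The brightest probe represented a gene. A model with 3 group means was fitted to the 9 arrays (6 residual and 16.4 prior degrees of freedom), over genes and over every probe. Of these steps, only the quantile normalization and the fit over genes were run on simulated log2 values. Background correction, the filter, the choice of probe and the fit over every probe were not. No detection p-values were used.

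Members and lists were chosen with earlier results of these data known. The text names all members, up to 4 called genes of lowest adjusted p per list and comparison (or 2 where none was called), the 3 genes most like and most unlike SNAI2 and CDH1, YAP1 and CCN1. Other list genes given with values were chosen after their values were seen. The number of arrays limits the precision, and median signals ran from 107 to 136 units. The alternatives, which varied background correction, normalization, filter, probes per gene, moderation, array weights, a replicate block and left-out arrays, are given in the closing section.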

Additional observations from a re-analysis of the deposited data

How the results depend on the processing

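Of 2092 values recomputed under an alternative, 1828 kept their side of the threshold, or for counts stayed within 1.5 times the main count. No called difference changed sign. These values include uncalled differences, also between vector and mock, so the share says little about the stability of the calls. Several calls of list genes were kept in few of the fits without an array, as given above. Uncalled differences near 0 did change sign, as for FN1 against vector, from −0.05 to 0.12 without single arrays. Dim probes limit the rest: a small difference in CDH2, FN1, SNAI1, ZEB1, ZEB2 or ESRP2 was not detectable. With an offset of 16 in place of 50, FOXA2 against vector and keratins 7, 8 and 18 and AJUBA against both controls remained called among the named list genes. The other named list genes lost their calls through larger p-values, with differences about as large, such as −0.52 for EHF (adjusted p = 0.059), −0.52 for KLF4 (0.0958), −0.46 for CDH17 (0.106) and −0.47 for LGALS1 (0.184) against vector, and calls over all genes went down to 153 higher and 105 lower against vector and 167 and 101 against mock.

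Against mock, 2 members were called without background correction, with the deposited log2 values, with a filter at the median of all probes and with probes averaged per gene, SNAI2 and ESRP1 each time, and 0 with equal medians. Against vector, the mean of the probes called 1 member, SNAI2, which was then 1 member called against both controls. Of single member probes, equal medians called 1 against mock, and the median filter, which removed ILMN_2082585, called 0 against vector and 1 against mock. Counts of list genes called are given next, and cause was not tested unless the alternative itself shows it. Without background correction, 4 junction genes were called against vector, and 3 epithelial transcription factors, 1 fibronectin receptor and 2 splicing genes against mock. The deposited values gave 4 junction genes and 2 cadherin partners against vector, and 3 epithelial factors, 2 cadherin partners, 1 fibronectin receptor and 2 splicing genes against mock. The offset of 16 left 1 epithelial factor called against vector and 1 SNAI and ZEB regulator against mock. It left 0 other transcription factors of the transition, junction, mesenchymal and cadherin genes against either control, 0 fibronectin receptors against vector, and 0 epithelial factors and splicing genes against mock. Equal medians left 0 other transition factors against either control, 1 junction gene and 0 mesenchymal and fibronectin receptor genes against vector, and 0 epithelial factors, 0 splicing genes and 1 regulator against mock. Cyclic loess called 1 mesenchymal gene against vector. Testing every probe called 0 other transition factors, 1 junction and 1 mesenchymal gene against vector and 1 regulator against mock. The mean of probes called 0 junction genes, 1 mesenchymal gene, 0 fibronectin receptors and 2 regulators against vector, and 2 epithelial factors and 2 mesenchymal genes against mock. The median filter and the trended fit each called 2 regulators against vector, and the trended fit 4 junction genes. A fit of only the arrays compared called 2 regulators against vector and 1 against mock. Array weights called 3 regulators against vector, and 2 epithelial factors and 1 regulator against mock.

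Arrays with the same replicate number did not deviate together: correlations of their deviations ran from −0.146 to 0.1 over 9 pairs, and from −0.09 to 0.131 over 18 pairs of other numbers. The replicate block gave 2 epithelial transcription factors and 1 SNAI and ZEB regulator against mock, and left the counts of members called at 0 against vector and 1 against mock.

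Without single arrays, the members called against mock ran from 0 (without YAP-S127A array 2) to 2 (without mock array 3), and the member probes from 1 to 2. Against vector, calls ran from 0 to 1 for other transition factors, cadherin partners and fibronectin receptors, from 1 to 2 for junction genes and regulators, and from 0 to 2 for mesenchymal genes. Against mock, they ran from 0 to 1 for other transition factors and splicing genes, from 0 to 2 for epithelial factors, from 0 to 3 for junction genes, and from 1 to 2 for mesenchymal genes and regulators.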
